A study of Homo sapiens with 6 samples.

Results

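The genes for translation initiation and elongation factors were taken by symbol. Every symbol that starts with EIF and a digit from 1 to 6, or with EEF and 1 or 2, was kept, and the EIF2AK kinases were left out, which gave 65 of the 25369 genes in the files. Poly(A) RNA was sequenced from Caki2 cells, a ccRCC (clear cell renal cell carcinoma) line without PBRM1 protein. Caki2+PBRM1 carried PBRM1, a subunit of the PBAF chromatin remodeling complex, in a tet-inducible lentiviral vector, and Caki2+Vector carried the empty vector. Each is a stable line selected after infection with the vector and the rtTA3 transactivator, both received doxycycline at 2 µg/mL, and each was sequenced as 3 replicates, A, B and C. The comparison asks how the factor genes differed between the lines with and without PBRM1 put back. The 3 replicates of a group come from the same line. An effect of PBRM1 and any other difference between the lines cannot be told apart.

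Translation starts when the small ribosomal subunit, loaded with the initiator tRNA by eIF2 and held by eIF3, is brought to the capped 5′ end of an mRNA by eIF4F and scans to a start codon. eIF2 is recharged with GTP by eIF2B, and this step is the target of the stress kinases that phosphorylate eIF2 alpha. During elongation eEF1A delivers each aminoacyl-tRNA, eEF1B recharges eEF1A, eEF2 moves the ribosome along and eIF5A helps it through difficult stretches.

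Most factor genes that changed went down in Caki2+PBRM1. The downregulated genes lay in eIF3 (6 genes), eIF2 and its alternates (3), eIF2B (3), eEF1B (2) and eIF5A (1), and no tested gene of eIF4F, of the scanning factors or of eEF1A passed the limma test. Normalized counts (reads on a gene divided by a size factor of the sample) were compared as log2(normalized count + 1) with limma across the 13303 genes with at least 10 in at least 3 samples, and genes with an adjusted p under 0.05 were called. Of the 65 symbols 56 were tested, and 15 were downregulated and 1 was upregulated. The 16 calls make 28.6% of the factor genes tested, where 29.2% of all genes tested were called, so the share of calls was near the background. The direction was less even. Downregulated genes made 26.8% of the factor genes and 13.0% of all genes, and upregulated genes made 1.8% and 16.2%. The median log2 fold change was -0.07 over the 56 factor genes and 0.00 over all genes tested (-0.004 before rounding), with a negative value for 39 factor genes and for 50.6% of all genes. All 3 Caki2+PBRM1 samples lay below all 3 Caki2+Vector samples for 20 factor genes, against 19.6% of all genes, and above them for 5, against 22.1% of all genes. The changes were small: the called genes moved by 0.129 to 0.465 on the log2 scale. The groups are bulk samples, so fewer cells of a kind and less RNA per cell cannot be told apart.

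**Figure D1:**
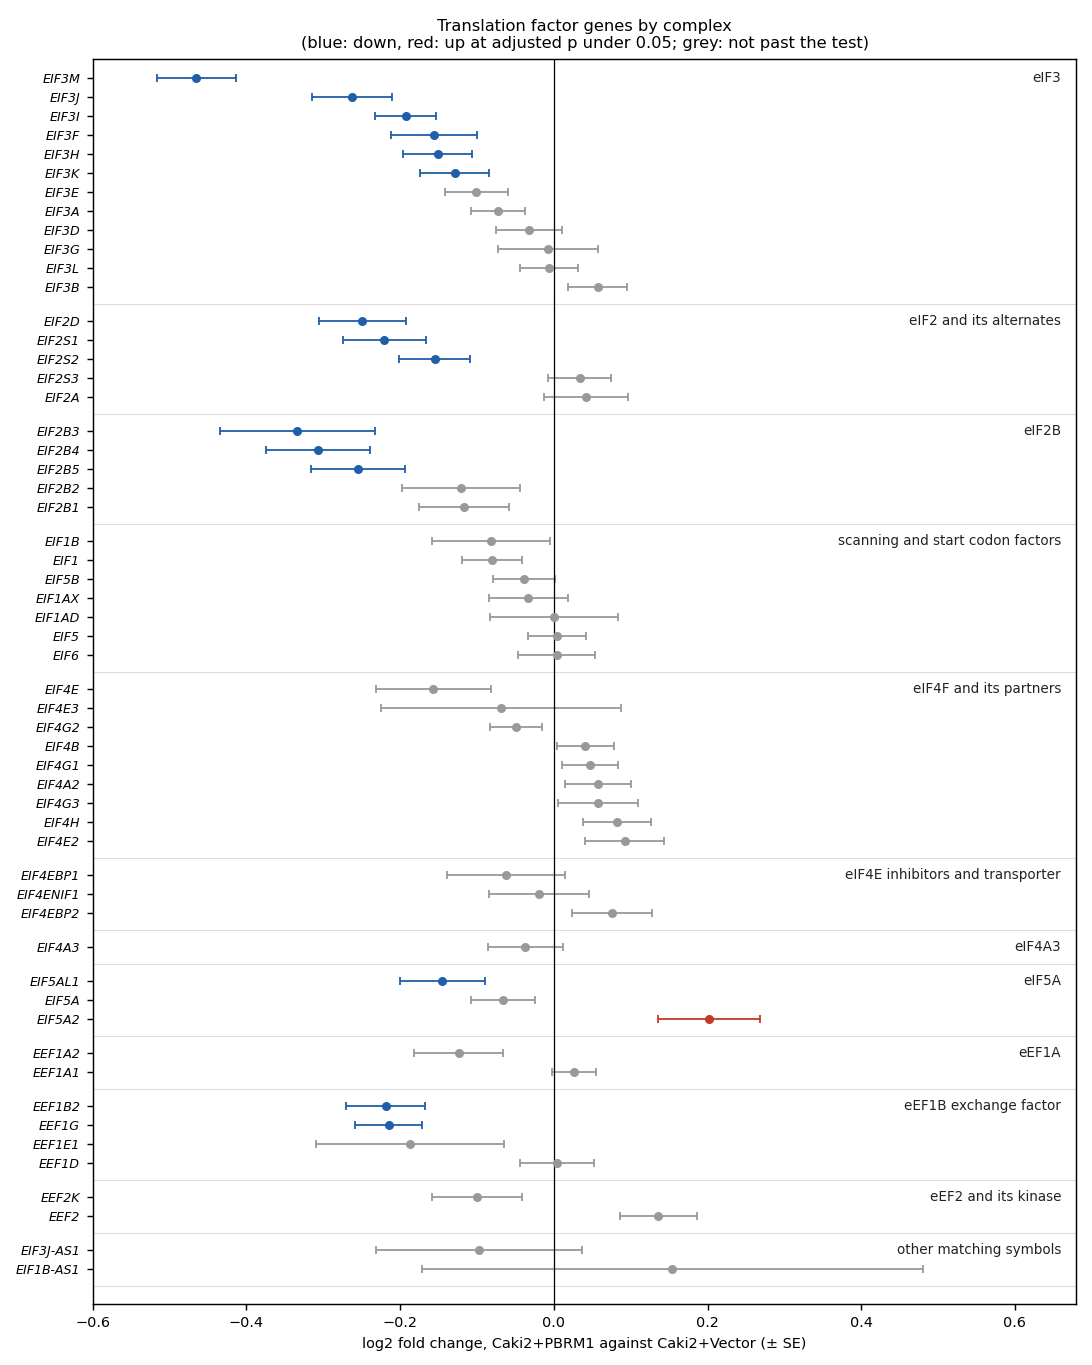
Log2 fold change of each tested factor gene except EIF1AY (55 genes), Caki2+PBRM1 against Caki2+Vector, with bars of ± 1 SE from limma, grouped by complex. Genes past an adjusted p of 0.05 are blue where lower and red where higher. The blue points lie in the groups of eIF3, eIF2, eIF2B, eIF5A and eEF1B, and EIF5A2 is the single red point.

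The libraries held 7312955 to 10835355 reads on genes, and PBRM1 itself had 182.2 to 195.0 normalized counts in the Caki2+Vector samples and 2432 to 2682 with PBRM1 put back. Caki2+Vector A stood apart: the chi-square of its counts, divided by the degrees of freedom, was 3.09 against B and 2.84 against C, beside 1.34 between B and C and 1.19 to 1.22 among the Caki2+PBRM1 samples. Without it 16 factor genes were downregulated and 2 were upregulated, against 14.4% and 16.9% of all genes. Of 10 renal epithelial and ccRCC markers, 7 did not overlap between groups, 3 lower and 4 higher with PBRM1 put back. Over all genes tested 19.6% were lower and 22.1% were higher without overlap. PAX8, a renal transcription factor, overlapped (1888 to 2190 normalized counts over all samples), the keratins KRT8 (8276 to 8812 against 7228 to 7743) and KRT18 (3295 to 3652 against 2741 to 2855) and the cadherin CDH2 were lower, and the cadherins CDH6 (1114 to 1209 against 2505 to 2552) and CDH16, MET and the HIF target CA9 (0 to 2.8 against 6.7 to 15.2) were higher. Of the 10 markers of blood, vessel and stroma, 7 stayed at or under 5.7 in every sample, among them CD3E at 0 throughout, and CD68 (1992 to 2140 against 1898 to 1935), COL1A1 (65.5 to 88.9) and PDGFRB (18.0 to 24.0) were detected. PTPRC and CD68 were the 2 of these that did not overlap, both lower with PBRM1 put back, as were 19.6% of all genes tested. The part of these marker differences in the results was not tested. The study calls the samples biological replicates, and no batch or date is given.

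Upstream sequences are shown for 4 genes: EIF3M, which had the largest change, EIF2B4 and EIF2S1, the eIF2B and eIF2 subunits with the smallest adjusted p, and EIF5A2, the upregulated gene. Each is the part of the 250 bases before the start of the canonical transcript (GENCODE on GRCh37) that lies in no annotated exon, written 5′ to 3′ on the gene's strand. Capitals mark matches on either strand to CCAAT, to the ETS motif CCGGAAG, to the E-box CACGTG or to the NRF1 core GCATGCGC.
EIF3M, chr11:32605127-32605343, plus strand: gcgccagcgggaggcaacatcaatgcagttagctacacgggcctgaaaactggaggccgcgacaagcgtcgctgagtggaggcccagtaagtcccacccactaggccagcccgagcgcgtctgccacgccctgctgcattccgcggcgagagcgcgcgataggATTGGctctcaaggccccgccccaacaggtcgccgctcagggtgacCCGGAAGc
EIF2B4, chr2:27593206-27593362, minus strand: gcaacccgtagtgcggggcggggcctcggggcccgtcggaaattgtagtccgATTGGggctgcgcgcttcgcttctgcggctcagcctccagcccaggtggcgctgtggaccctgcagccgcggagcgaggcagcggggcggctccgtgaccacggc
EIF2S1, chr14:67826983-67827044, plus strand: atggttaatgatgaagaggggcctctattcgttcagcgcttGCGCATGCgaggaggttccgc
EIF5A2, chr3:170626434-170626645, minus strand: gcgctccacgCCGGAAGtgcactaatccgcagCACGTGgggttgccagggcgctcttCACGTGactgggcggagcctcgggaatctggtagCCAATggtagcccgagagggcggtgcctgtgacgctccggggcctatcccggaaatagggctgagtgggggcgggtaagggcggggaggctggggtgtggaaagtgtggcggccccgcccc
The stretches of EIF2B4 and EIF2S1 end where exons of SNX17 and ATP6V1D, on the opposite strand, begin. Over the full 250 bases, a CCAAT match was found in 25 of 59 factor promoters (42.4%) and in 34.3% of 19809 promoters of protein-coding genes. An E-box was found in 14 (23.7%) and in 7.9%, the ETS motif in 13 (22.0%) and in 11.9%, the NRF1 core in 3 (5.1%) and in 3.8%, the CRE motif TGACGTCA in 2 (3.4%) and in 2.4%, and the YY1 motif AAGATGGC in 0 and in 1.3%. Transcripts that start with C and then 4 pyrimidines, the start typical of mRNAs whose translation follows mTORC1, made up 20 of 59 factor genes (33.9%) and 4.6% of all protein-coding genes. These matches are descriptions of the letters and show no binding.

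eIF3 is the largest initiation factor, a scaffold of subunits a to m that binds the small subunit and keeps the large subunit away. Of its 12 tested genes 6 were downregulated and 0 were upregulated (50.0% called, with a median log2 fold change of -0.115), and 11 had a negative value. Over all genes tested 13.0% were downregulated, 16.2% were upregulated and 50.6% had a negative value. Without Caki2+Vector A the count of downregulated eIF3 genes was 6 as well. Within the octamer that forms the core (subunits a, c, e, f, h, k, l and m), 4 of 7 tested genes fell, and 2 of the 5 other subunits did. Other tools also called 0 eIF3 genes as upregulated, with 4 downregulated in DESeq2 and 6 in edgeR. eIF3 genes together took 0.285% to 0.296% of the reads of Caki2+Vector samples, and 0.264% to 0.265% of those of Caki2+PBRM1 samples, and their summed normalized counts separated the same way (25021 to 25873 against 23990 to 24153).

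EIF3M (chromosome 11, 32605344 to 32627810, 11 exons) encodes the m subunit and had the largest change of all factor genes. It had 1075, 1055 and 1009 normalized counts in Caki2+Vector A, B and C and 745.2, 739.5 and 788.9 in Caki2+PBRM1 A, B and C. The groups were far apart, and the highest Caki2+PBRM1 sample stayed well below the lowest Caki2+Vector sample. EIF3M fell by 27.6% (log2 fold change -0.465, SE 0.05, adjusted p = 2.62e-08).

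EIF3J (chromosome 15, 44829323 to 44855227) encodes the loosely bound j subunit, which sits near the decoding site and also acts in ribosome recycling. Its normalized counts were 1072, 973.1 and 994.8 in Caki2+Vector and 872.0, 815.9 and 842.7 in Caki2+PBRM1. It fell by 16.7% (log2 fold change -0.26, SE 0.05, adjusted p = 2.35e-04). EIF3I (chromosome 1, 32686678 to 32710998), which joins b and g in a module by the mRNA entry channel, had 2401, 2532 and 2374 in Caki2+Vector and 2148, 2143 and 2097 in Caki2+PBRM1. The Caki2+PBRM1 samples were close together and all lower, and EIF3I fell by 12.5% (log2 fold change -0.19, SE 0.04, adjusted p = 4.63e-04). EIF3M, EIF3J and EIF3I passed the test under every one of the 15 alternative settings.

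The other downregulated eIF3 genes were nearer the threshold. EIF3H, a subunit with an MPN domain, had 1840, 1679.8 and 1702 normalized counts in Caki2+Vector and 1619, 1535 and 1546 in Caki2+PBRM1. It fell by 9.9% (adjusted p = 0.0116). EIF3K, a small peripheral subunit, had 1547, 1614 and 1466 against 1391.9, 1425 and 1410.0, and fell by 8.6% (adjusted p = 0.0315). Replicates did not overlap between groups for either gene, with gaps of no more than a few percent of the level. EIF3F, the other subunit with an MPN domain, had 695.8, 743.5 and 735.9 against 628.2, 681.7 and 642.1, and fell by 10.3% (adjusted p = 0.0344). Each of these calls is lost when some single library is left out, and DESeq2 called EIF3H but neither EIF3K nor EIF3F. EIF3H was not called without Caki2+PBRM1 B or C (adjusted p = 0.0751 and 0.065). Among the fits that left out 1 library, EIF3K was called in those without Caki2+Vector A and without Caki2+Vector C, and its adjusted p was 0.148 without Caki2+Vector B. EIF3F was not called without Caki2+Vector B or C or Caki2+PBRM1 A or C (adjusted p of up to 0.153).

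The remaining eIF3 genes did not pass the test. EIF3A, the largest subunit and backbone of the octamer, had 4481, 4423 and 4394 in Caki2+Vector and 4239.5, 4223 and 4179.7 in Caki2+PBRM1. All Caki2+PBRM1 samples were lower, with an adjusted p of 0.117 (log2 fold change -0.07). EIF3E was also lower in each Caki2+PBRM1 sample (adjusted p = 0.0638, log2 fold change -0.10), and EIF3B, EIF3D, EIF3G and EIF3L overlapped between groups with log2 fold changes from -0.03 to 0.06. EIF3C could not be compared: it had 0.8 to 2.8 normalized counts and its copy EIF3CL is listed at 0 in every sample. The 2 genes are near-identical, with 97.0% and 96.9% of the 100-base stretches of their transcripts found elsewhere in the genome or in other transcripts, and a read inside such a stretch matches both.

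**Figure D2:**
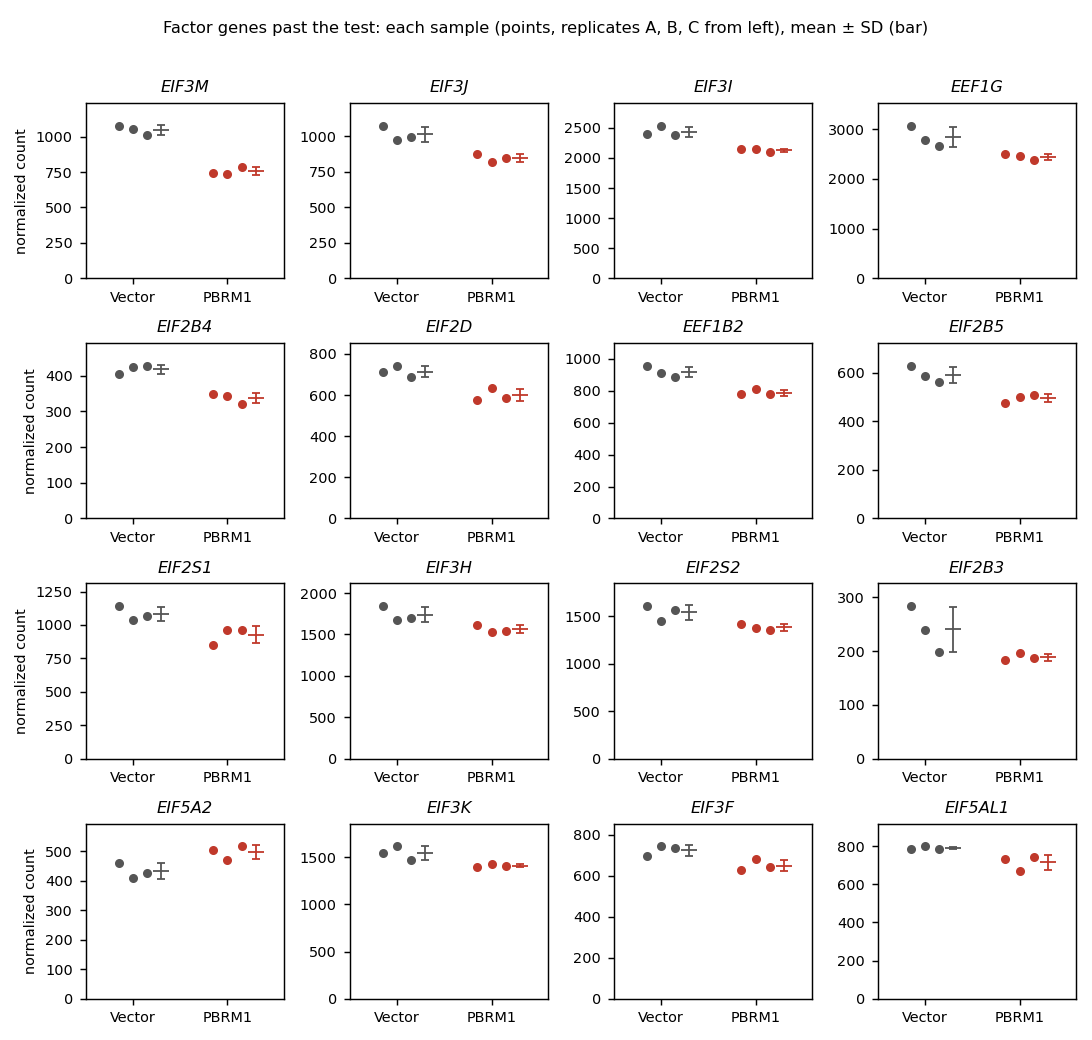
Normalized counts of the 16 factor genes past the test in each sample, as points for replicates A, B and C from left to right, with the mean ± SD beside them; each panel has its own linear axis from 0. In every panel the 3 Caki2+PBRM1 samples (red) lie outside the range of the 3 Caki2+Vector samples (grey), above it for EIF5A2 and below it for the other genes, and EIF2B3 has the widest spread in Caki2+Vector.

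eIF2 carries the initiator tRNA to the ribosome as a trimer of alpha, beta and gamma subunits, and EIF2A and EIF2D encode factors that can deliver tRNA without it. Of these 5 genes 3 were downregulated (60.0%) and 0 were upregulated, beside 13.0% and 16.2% of all genes. EIF2S1 (chromosome 14, 67827045 to 67853233) encodes the alpha subunit, which the stress kinases phosphorylate. It had 1139.8, 1034.5 and 1068 normalized counts in Caki2+Vector and 853.5, 965.3 and 965.2 in Caki2+PBRM1. Caki2+PBRM1 A was the lowest sample, and the groups did not overlap. EIF2S1 fell by 14.2% (log2 fold change -0.22, SE 0.05, adjusted p = 2.48e-03), and without Caki2+PBRM1 A the adjusted p was 0.0503 (log2 fold change -0.16).

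EIF2S2, the beta subunit, had 1607, 1452 and 1571 in Caki2+Vector and 1422, 1378 and 1356 in Caki2+PBRM1. It fell by 10.2% (log2 fold change -0.155, SE 0.05, adjusted p = 0.0118), but was not called without Caki2+PBRM1 B or C (adjusted p = 0.0549 and 0.0758), and 20.5% of its 100-base stretches occur elsewhere. EIF2S3, the gamma subunit that binds GTP and the tRNA, had a mean of 1968 ± 18.5 against 2016 ± 68.7 (SD, n = 3) and overlapped between groups (log2 fold change 0.03, adjusted p = 0.582). The difference between the subunits of the trimer was not tested. EIF2D (chromosome 1, 206744620 to 206785818), which also acts in ribosome recycling, had 712.9, 740.7 and 685.6 against 577.3, 635.5 and 587.5. It fell by 15.8% (log2 fold change -0.25, SE 0.06, adjusted p = 1.34e-03) and was called under every alternative, while EIF2A overlapped between groups (log2 fold change 0.04, adjusted p = 0.618).

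eIF2B, the exchange factor that recharges eIF2 with GTP, is built from a regulatory part (alpha, beta and delta, from EIF2B1, EIF2B2 and EIF2B4) and a catalytic part (gamma and epsilon, from EIF2B3 and EIF2B5). All 5 genes had a negative log2 fold change, beside 50.6% of all genes, and 3 were downregulated (60.0%, beside 13.0%). For 4 of them all Caki2+PBRM1 samples were below all Caki2+Vector samples, beside 19.6% of all genes. EIF2B5 (chromosome 3, 183852826 to 183863915), the catalytic subunit proper, had 626.7, 584.8 and 560.9 normalized counts in Caki2+Vector and 476.6, 498.6 and 508.6 in Caki2+PBRM1. It fell by 16.2% (log2 fold change -0.255, SE 0.06, adjusted p = 1.89e-03). EIF2B4 (chromosome 2, 27587219 to 27593205) had 403.3, 423.3 and 426.7 against 348.8, 342.2 and 321.4. The gap between groups was wide beside the spread within them, and EIF2B4 fell by 19.2% (log2 fold change -0.31, SE 0.07, adjusted p = 8.79e-04).

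EIF2B3 (chromosome 1, 45316194 to 45452394) had 283.1, 239.0 and 199.0 in Caki2+Vector and 183.1, 195.5 and 187.2 in Caki2+PBRM1. The Caki2+Vector samples were widely spread, with A the highest and C close to the Caki2+PBRM1 range. EIF2B3 fell by 20.7% (log2 fold change -0.33, SE 0.10, adjusted p = 0.0131). Without Caki2+Vector A the log2 fold change was -0.21 and the adjusted p was 0.087, and without Caki2+PBRM1 A the adjusted p was 0.0639, so the count for eIF2B was 2 of 5 without Caki2+Vector A. EIF2B1 was lower in each Caki2+PBRM1 sample (550.9 ± 15.5 against 507.7 ± 4.6, SD, n = 3, adjusted p = 0.139), and 22.4% of its exon bases are shared with DDX55. EIF2B2 overlapped between groups (adjusted p = 0.252).

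The scanning and start codon factors place the small subunit on the start codon and join the large subunit. EIF1AD and EIF6 were grouped with them here. Of 7 tested genes (EIF1, EIF1B, EIF1AX, EIF1AD, EIF5, EIF5B and EIF6) 0 passed the limma test, with log2 fold changes from -0.08 to 0.00 and a smallest adjusted p of 0.126, and the groups overlapped for each. At an unadjusted p under 0.05 limma had 1 of them, and edgeR and DESeq2 called 0. EIF5, the GTPase activator of eIF2, had 3117, 2956 and 3073 in Caki2+Vector and 3027.5, 3057 and 3084 in Caki2+PBRM1 (adjusted p = 0.954). EIF6, which keeps the subunits apart, had 1574, 1879 and 1710.3 against 1711, 1748 and 1704, where Caki2+Vector A was the lowest of all samples (adjusted p = 0.968). EIF1AY was tested too and was not called.

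eIF4F binds the mRNA cap through eIF4E, unwinds it with the helicase eIF4A and holds both on the scaffold eIF4G, with eIF4B and eIF4H as helpers. Of the 9 tested genes grouped with it here, which include EIF4E2, EIF4E3 and EIF4G2, 0 passed the limma test. The smallest adjusted p was 0.118 and the median log2 fold change was 0.05, and 1 of the 9 had an unadjusted p under 0.05. edgeR and DESeq2 called 0 of them as well. Their share of reads was 0.315% to 0.320% in the Caki2+Vector samples, against 0.308% to 0.311%, while their summed normalized counts overlapped (27770 to 28007 against 27955 to 28357). EIF4E (chromosome 4, 99800427 to 99850284) had 298.2, 295.7 and 317.6 normalized counts in Caki2+Vector and 270.8, 264.9 and 281.2 in Caki2+PBRM1. Each Caki2+PBRM1 sample was lower, without passing the test (log2 fold change -0.16, SE 0.075, adjusted p = 0.118), and 47.0% of the 100-base stretches of its transcript are found elsewhere. Its relative EIF4E2, which binds the cap but not eIF4G in the usual way, had 847.3, 801.2 and 855.8 against 886.0, 900.4 and 881.3 (log2 fold change 0.09, adjusted p = 0.183). EIF4G1, the main scaffold, had 6963, 7439 and 7626 against 7466, 7473 and 7801 and overlapped between groups (adjusted p = 0.353), with Caki2+Vector A the lowest. EIF4B, EIF4E3, EIF4G2, EIF4G3 and EIF4H overlapped as well, and EIF4H (log2 fold change 0.08, adjusted p = 0.173) was called only when Caki2+Vector B was left out (adjusted p = 0.0275).

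The helicase genes gave less. EIF4A1 is listed at 0 in all 6 samples. On GRCh37 it lies at 7476142 to 7482324 of chromosome 17, and 83.4% of its exon bases are shared with the read-through gene SENP3-EIF4A1; the part of this overlap in the value was not tested. EIF4A2 had 1478 ± 23.1 normalized counts against 1538 ± 9.0 (SD, n = 3), higher in each Caki2+PBRM1 sample but not called (adjusted p = 0.339). EIF4A3, the helicase of the exon junction complex, overlapped between groups (adjusted p = 0.616). EIF4E1B is listed at 0 in every sample.

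The inhibitors of eIF4E compete with eIF4G for it and let go when mTORC1 phosphorylates them. EIF4EBP1 had 297.3, 321.2 and 315.2 normalized counts in Caki2+Vector and 275.1, 321.8 and 298.8 in Caki2+PBRM1, and the groups overlapped (adjusted p = 0.592). EIF4EBP2 had 772.5, 786.0 and 750.3 against 790.7, 836.4 and 806.6, higher in each Caki2+PBRM1 sample without passing the test (log2 fold change 0.08, adjusted p = 0.294). EIF4EBP3, which shares 73.2% of its exon bases with ANKHD1-EIF4EBP3, had 0 to 2.4 and was not tested. EIF4ENIF1, which carries eIF4E into the nucleus, overlapped between groups (adjusted p = 0.857).

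eIF5A carries hypusine, a modified lysine that no other protein family has, and its genes went different ways. EIF5A2 (chromosome 3, 170606207 to 170626433), the less abundant form, had 461.0, 408.1 and 426.7 normalized counts in Caki2+Vector and 503.7, 471.1 and 515.3 in Caki2+PBRM1. Caki2+PBRM1 B was close above Caki2+Vector A, and the other samples were well separated. EIF5A2 rose by 15.0% (log2 fold change 0.20, SE 0.07, adjusted p = 0.02). DESeq2 on recovered reads did not call it (adjusted p = 0.0894), and neither did limma without Caki2+Vector B or Caki2+PBRM1 A or C (adjusted p of up to 0.111). EIF5A had 3204, 3548 and 3551 against 3373, 3142 and 3319 and overlapped between groups (log2 fold change -0.07, adjusted p = 0.254), and without Caki2+Vector A, its lowest replicate, it was lower with an adjusted p of 0.00383 (log2 fold change -0.115). EIF5AL1, a single-exon copy on chromosome 10, had 786.7, 798.3 and 787.5 against 734.4, 669.3 and 743.6 and fell by 9.6% (adjusted p = 0.0445). This call was lost in DESeq2 and in 5 of 6 fits that left out a library, and 34.5% of its sequence is found elsewhere, so its counts are uncertain.

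Elongation is served by abundant mRNAs. Per kilobase of canonical transcript, mean normalized counts in Caki2+Vector were 5969 for EEF2 and 5208 for EEF1A1, followed by 2861 for EIF4G2 and 2717 for EIF5A. At the low end of the same scale were EEF2K and EIF5A2 at 78 each, EIF2B2 at 71 and EIF4E3 at 6. The tested eIF3 genes ran from 105 (EIF3F) to 1998 (EIF3K) on this scale. The length is that of the canonical transcript in GENCODE (6920 bases for EIF3F) and need not be the one used in these cells.

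eEF1A and eEF2 did not pass the limma test, and 1 of the eEF1A genes had an unadjusted p under 0.05. edgeR and DESeq2 called 0 eEF1A genes. EEF1A1 had 18809, 18206 and 17856 in Caki2+Vector and 18812, 18726 and 18303 in Caki2+PBRM1, and the groups overlapped (log2 fold change 0.03, adjusted p = 0.558). Of the 100-base stretches of the EEF1A1 transcript 39.3% are found elsewhere, so its counts are uncertain. EEF1A2, the form of muscle and nerve, had 1355, 1627 and 1637 against 1374.5, 1432 and 1417, with Caki2+Vector A below all other samples (log2 fold change -0.12, adjusted p = 0.116). Without Caki2+Vector A the remaining samples of EEF1A2 separated, with a log2 fold change of -0.21 and an adjusted p of 1.63e-05. EEF2 (chromosome 19, 3976054 to 3985461) had 16959.9, 19785 and 19804 against 20629, 20609 and 20745. It was higher in each Caki2+PBRM1 sample, by 0.14 on the log2 scale (SE 0.05, adjusted p = 0.0639), and again Caki2+Vector A stood lowest. The call of EEF2 depended on the setting: the adjusted p was 0.0196 in edgeR and 0.0495 in DESeq2 on recovered reads, and 0.0159, 0.0244 and 0.016 without Caki2+Vector A, B or C. EEF2 was not called by voom (adjusted p = 0.0696) or by limma with no filter on low values (0.166). Nor was it called by limma without Caki2+PBRM1 A, B or C (0.0935, 0.0918 and 0.0945). Without Caki2+Vector A the difference was 0.06, and without B or C it was 0.17. EEF2K, the kinase that shuts eEF2 off, had 563.3, 569.7 and 605.3 against 517.8, 557.3 and 546.4, lower in each Caki2+PBRM1 sample (log2 fold change -0.10, adjusted p = 0.218).

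eEF1B recharges eEF1A with GTP. Of the 4 genes grouped with it here 2 were downregulated (50.0%, beside 13.0% of all genes). EEF1B2 (chromosome 2, 207024309 to 207027652), a catalytic subunit, had 954.3, 911.7 and 889.3 normalized counts in Caki2+Vector and 777.7, 810.6 and 777.2 in Caki2+PBRM1. It fell by 14.1% (log2 fold change -0.22, SE 0.05, adjusted p = 1.51e-03). EEF1G (chromosome 11, 62327068 to 62341558), the structural subunit, had 3064, 2786 and 2666 against 2490.2, 2457 and 2378. Caki2+Vector A was the highest sample, and EEF1G fell by 13.8% (log2 fold change -0.215, SE 0.04, adjusted p = 4.68e-04). Both genes were called under every alternative, also without Caki2+Vector A (log2 fold changes of -0.19 and -0.16). Both have much sequence in common with other places in the genome, 36.1% of 100-base stretches for EEF1B2 and 55.2% for EEF1G, so their counts are uncertain. EEF1D, the other catalytic subunit, had 2031 ± 170.8 against 2032 ± 24.9 (SD, n = 3) and overlapped between groups (adjusted p = 0.962). EEF1E1, which sits in the tRNA synthetase complex, also overlapped (adjusted p = 0.269), with Caki2+Vector A the highest.

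Calls were found among genes with and without shared sequence. Of the 14 tested factor genes with at least 5% of their 100-base stretches elsewhere, 5 were downregulated (35.7%). Of the 41 under 5%, 10 were downregulated (24.4%) and 1 was upregulated (2.4%). Over all genes tested 13.0% were downregulated and 16.2% were upregulated, and no split by shared sequence was made there. The part of shared sequence in the calls was not tested. EIF3J-AS1 was not found in the annotation, so its 100-base stretches were not measured. How the counting treated reads with several positions is not given in the sources used here, and neither is strand. The antisense genes EIF3J-AS1 and EIF1B-AS1 were tested and overlapped between groups. The canonical exons of EIF1B-AS1 share 0.0% of their bases with other genes of the files, and those of EIF3J-AS1 were not located here, so reads of EIF3J on the other strand cannot be told apart from its own where they overlap.

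Summed over all 65 symbols, factor genes took 1.452% to 1.459% of reads in the Caki2+Vector samples, against 1.387% to 1.392%. On the scale of normalized counts the same sums were 126641 to 128541 and 126169 to 126957, and the groups overlapped. The separation in the share of reads was thus not present in the summed normalized counts of all symbols. Within this total the sums of parts differed in direction. EEF1A1 plus EEF2, a large part of it, summed to 35769, 37991 and 37660 with the empty vector, and were higher with PBRM1 put back (39440, 39334 and 39048). EEF1A1 alone overlapped between groups, and EEF2 was not called by limma (adjusted p = 0.0639). Without Caki2+Vector A the log2 fold change of EEF2 was 0.06. The sums of eIF3, eIF2 and its alternates, eIF2B, eEF1B and the scanning factors were lower without overlap. Those of eEF1A, eIF4F and eIF5A overlapped. A total without EEF1A1 and EEF2 was not tested.

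Ratios between factor genes were taken within a sample, as log2 ratios of normalized count + 1. Of 12 ratios listed, 10 could be computed and 4 separated the groups, 3 lower and 1 higher with PBRM1 put back. Among single genes 19.6% separated lower and 22.1% higher, and no such share was taken over ratios of other genes. Each of the 4 ratios had an exact two-sided permutation p of 0.1, the smallest that 3 against 3 samples allow. The log2 ratio of EIF4E to EIF4E2 was -1.50, -1.44 and -1.43 in Caki2+Vector and -1.71, -1.76 and -1.65 in Caki2+PBRM1, a difference of -0.25. The ratio of EIF5A to EIF5A2 differed by -0.27, that of EIF4EBP1 to EIF4EBP2 by -0.14 (with Caki2+Vector A and Caki2+PBRM1 B nearly equal, at -1.375 each after rounding) and that of EEF2 to EEF2K by 0.24. The ratios of EIF1 to EIF1B, EIF4E to EIF4E3, EIF4G1 to EIF4G2 and to EIF4G3, EIF4EBP1 to EIF4E and EEF1A1 to EEF1A2 overlapped between groups.

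**Figure D3:**
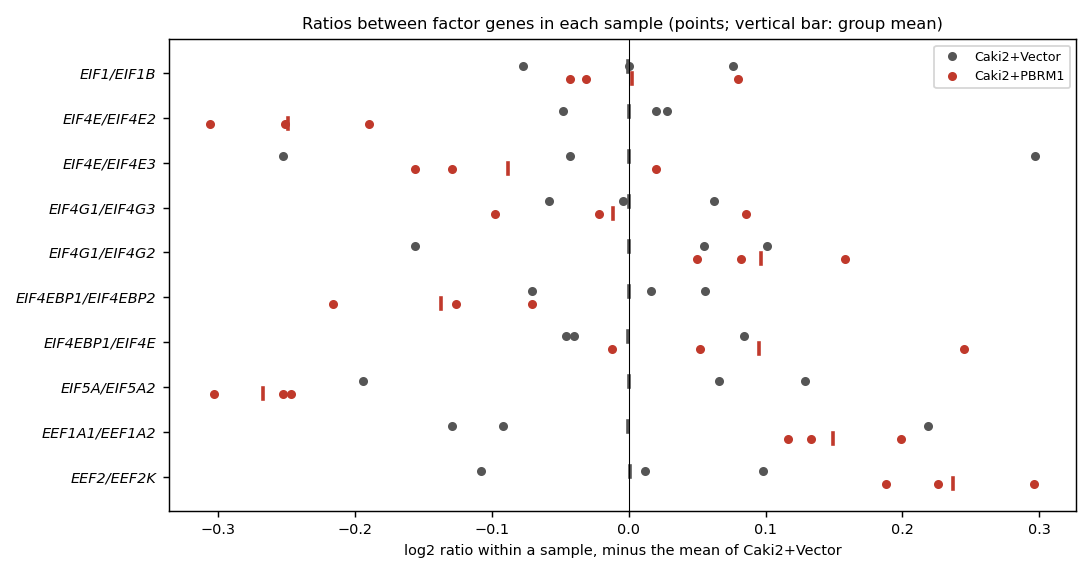
Log2 ratio of normalized counts between pairs of factor genes in each sample, shown minus the mean of Caki2+Vector, with a bar at each group mean. The ratios of EIF4E to EIF4E2, EIF4EBP1 to EIF4EBP2 and EIF5A to EIF5A2 are lower in all 3 Caki2+PBRM1 samples, and that of EEF2 to EEF2K is higher.

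Around the factors, 76 further genes of translation were looked up, of which 75 were tested, and 13 were downregulated and 9 were upregulated (29.3%, beside 29.2% of all genes). The list of cytosolic tRNA synthetases, which charge tRNA with its amino acid, held most of the downregulated ones. It had 10 down and 2 up of 22 tested, 8 down and 2 up without Caki2+Vector A, and 5 down and 2 up in DESeq2. The list also holds AIMP1 and AIMP2, which are not synthetases, and both were downregulated (limma adjusted p = 0.0432 and 0.0288). With limma on all samples 45.5% of the list's genes were down and 9.1% up, beside 13.0% and 16.2% of all genes. VARS, for valine, changed most among them by adjusted p: it had 2419.5 ± 155.6 normalized counts against 1929 ± 48.4 (SD, n = 3) and fell, with a log2 fold change of -0.325, an SE of 0.045 and a limma adjusted p of 1.59e-06. GARS, for glycine, went the other way, with 2062 ± 132.7 against 2416 ± 60.3, an increase of 0.23 on the log2 scale (SE 0.04, adjusted p = 1.79e-04). The other upregulated one was RARS, for arginine.

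Among the regulators of eIF4E and eIF4A, 3 of 10 tested genes were upregulated (PDCD4, PABPC4 and CYFIP1) and 0 downregulated, beside 16.2% and 13.0% of all genes. PDCD4, which blocks eIF4A, rose by 0.41 on the log2 scale, with 391.8 ± 18.8 against 521.0 ± 19.2 (SE 0.06, adjusted p = 1.13e-05). PABPC4, a poly(A) binding protein, rose by 0.31, with 1198 ± 58.3 against 1488 ± 23.2 (SE 0.05, adjusted p = 4.88e-06). Among the eIF2 alpha kinases and phosphatase subunits 2 of 9 were upregulated (22.2%) and 0 downregulated, and without Caki2+Vector A 3 were upregulated and 1 downregulated. EIF2AK3, the kinase PERK of the endoplasmic reticulum, rose by 0.43, with 232.7 ± 0.9 against 313.7 ± 11.5 (SE 0.08, adjusted p = 6.47e-05). PPP1R15A, which directs a phosphatase to eIF2 alpha, was the other, and DESeq2 (adjusted p = 0.135) and 4 of the 6 fits that left out 1 library did not call it. ABCE1, which splits ribosomes after termination, fell by 0.29, with 1650.3 ± 78.5 against 1350.1 ± 35.6 (SE 0.05, adjusted p = 1.32e-05), and no other of the 8 tested genes of recycling, release and rescue was called. These means are normalized counts ± SD (n = 3), Caki2+Vector before Caki2+PBRM1, and VARS, GARS, PDCD4, PABPC4, EIF2AK3 and ABCE1 were called in each of the 6 fits that left out 1 library. For the eIF4E and eIF4A regulators and the eIF2 alpha kinases and phosphatase subunits, each with 0 downregulated genes, edgeR and DESeq2 also called 0 in that direction, and limma had 0 at an unadjusted p under 0.05.

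Of 11 genes of mTORC1 and its S6 kinases 1 was downregulated (RPS6KB1) and 1 was upregulated (RPTOR), and neither was called without Caki2+Vector A or by DESeq2. Of the 9 genes that modify eIF5A and eEF2 0 were called by limma, with a smallest adjusted p of 0.0608, 1 had an unadjusted p under 0.05, and edgeR called 1 and DESeq2 0. Of 6 selenocysteine factors 1 was downregulated (SEPHS1) and 1 was upregulated (PSTK, at 8.4 to 25.2 normalized counts). DESeq2 called neither (adjusted p = 0.0668 and 0.0574), and they were lost in 4 and 2 of the 6 fits that left out 1 library.

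**Figure D4:**
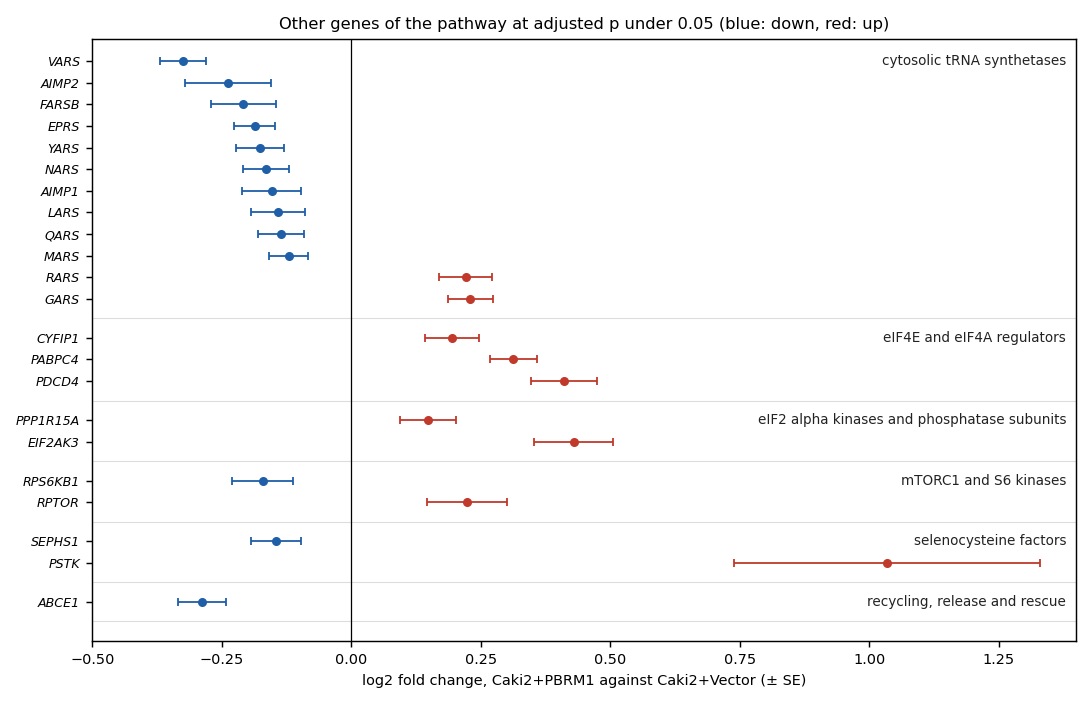
Log2 fold change of the 22 further genes of translation with an adjusted p under 0.05, Caki2+PBRM1 against Caki2+Vector, with bars of ± 1 SE from limma, grouped by list. The tRNA synthetase list has 10 blue (lower) and 2 red (higher) points, and the lists of eIF4E and eIF4A regulators and of eIF2 alpha kinases and phosphatase subunits have red points only.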

How the data were processed

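Poly(A) RNA-Seq (paired-end) of 3 Caki2+Vector and 3 Caki2+PBRM1 samples was analysed, grouped by the sample titles. The authors removed adapters, poor reads and rRNA reads, aligned the rest to hg19 with STAR, counted them on 25369 UCSC genes with htseq-count and normalized with DESeq2 (versions are not given in the sources used here). The signal values the authors deposited are normalized counts, and dividing out their steps gave whole reads for 100.0% of values (within 0.1 read), with size factors from 0.8343 to 1.1915.

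limma 3.58.1 (trend, robust; R 4.3.3) was fitted to log2(normalized count + 1) of all genes that reached 10 in 3 or more samples, with Benjamini-Hochberg adjustment over them. The scale with a pseudocount understates changes of low genes. SE is the moderated SE. edgeR 4.0.16 and DESeq2 1.42.0 on the recovered reads, voom, TMM factors, other filters and pseudocounts (0.5 and 4), an adjusted p under 0.01, a replicate block and leaving out each library were alternatives. The fit was also run on simulated data, with changes larger than those of the called factor genes, so that run does not cover changes of their size.

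The factor genes and all lists were chosen with earlier results of these data known. Values per sample are given for the called factor genes and a fixed set of core factors, and the 6 pathway genes with the smallest adjusted p are named with values. Other called pathway genes are named where a list holds 5 or fewer in that direction, chosen after their values were seen. The replicate letters did not pair the samples (Pearson r across genes of same-letter deviations -0.008 to 0.014). Coordinates and canonical transcripts come from GENCODE v44lift37 on GRCh37, which held 64 of the 65 symbols. The level of EIF1AY is not given. The spread measures these samples, which may be technical. No protein sequences were used here. Figures were drawn with matplotlib 3.10.9.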

Additional observations from a re-analysis of the deposited data

How the results depend on the processing

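The 65 factor genes gave 16 calls, 15 down and 1 up. At an adjusted p under 0.01 there were 9 calls, 9 down and 0 up. Leaving out 1 library at a time gave 10 to 18 calls, of which 10 to 16 were down and 0 to 2 were up. The count of upregulated factor genes was 2 with edgeR and 2 with TMM factors. With a replicate block, which the letters do not justify, there were 18 calls, 16 down and 2 up, and 4107 over all genes in place of 3886. DESeq2 called 2553 over all genes and 12 of the 16 factor genes called by limma. It did not call EIF5A2 (adjusted p = 0.0894), and it called EEF2 as upregulated (adjusted p = 0.0495). The 22 called pathway genes became 12 with DESeq2, 12 at an adjusted p under 0.01 and 10 to 21 with 1 library left out. The cause of these shifts was not tested. Of the 16 called factor genes 8 were called in all 15 alternatives (EEF1B2, EEF1G, EIF2B4, EIF2B5, EIF2D, EIF3I, EIF3J and EIF3M), and none changed direction in any. At this depth the median SE was 0.05 over factor genes and 0.08 over all genes, which limits how small a difference could be called.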

Other observations

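The promoter letters of the factor genes can be set beside their calls, as a description chosen after the calls were seen. Of the 23 tested factor genes with a CCAAT match in the 250 bases before the start, 10 were downregulated (43.5%) and 1 was upregulated, and of the 30 without a match 5 were downregulated (16.7%). Over all tested protein-coding genes the downregulated share was 14.0% of 4003 with a CCAAT match and 13.2% of 7576 without. The other motifs split the factor genes in both directions. Downregulated were 3 of 13 with an E-box and 12 of 40 without, and 4 of 11 with the ETS motif and 11 of 42 without. For the NRF1 core they were 2 of 3 with it and 13 of 50 without, and for the CRE motif 1 of 2 and 14 of 51. Over all tested protein-coding genes the downregulated share with and without a match was 13.6% and 13.5% for the E-box and 13.1% and 13.6% for the ETS motif. It was 13.7% and 13.5% for the NRF1 core and 12.7% and 13.5% for the CRE motif. For the pyrimidine start 6 of 18 factor genes with it and 9 of 35 without were downregulated. The downregulated share over all tested protein-coding genes was 19.3% of 633 with it and 13.2% of 10946 without. The genes share libraries, and no test was made of any split.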
